A study of Mus musculus with 9 samples.

Results

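The 10 genes described here encode central parts of the autophagy machinery: the 5 Atg8 genes Gabarap, Gabarapl1, Gabarapl2, Map1lc3a and Map1lc3b, the cargo receptor genes Nbr1, Optn and Tax1bp1, and the initiator genes Ulk1 and Wipi1. They were chosen by symbol, and all 10 were found among the 18049 genes of the deposited expression table. The table covers macrophages grown in culture from the bone marrow of C57BL/6 mice, 8 weeks of age, in RPMI medium. Cells were exposed for 6 h to 1 µM of a compound written 15d-PGJ2-PC, to 1 µM 15d-PGJ2, or to medium only (control), with 3 RNA libraries in each of the 3 groups. 15d-PGJ2 is a cyclopentenone prostaglandin, a reactive lipid known as a ligand of PPARγ and an activator of the antioxidant factor Nrf2. What PC stands for is not in the labels, and nothing is said here of that compound's structure. Whether libraries of a group came from different cultures or animals is not given either, so p-values cover the spread among the libraries, part or all of which could be technical.

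In macroautophagy a double membrane grows around cytoplasmic cargo, closes into an autophagosome and fuses with a lysosome. The ULK1 kinase complex starts the process, WIPI proteins bind the phosphoinositide made at the growing membrane, and small ubiquitin-like Atg8 proteins of the LC3 and GABARAP subfamilies are attached to its lipids. Receptors such as TAX1BP1, NBR1 and optineurin bind ubiquitin on cargo with one part and Atg8 proteins with another. Macrophages use the pathway to degrade damaged organelles, protein aggregates and microbes. The level of an mRNA says nothing by itself about how much cargo is being degraded.

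Among the 10 genes, Gabarapl1, Tax1bp1 and Ulk1 had the largest rises with 15d-PGJ2, and each also rose with 15d-PGJ2-PC. Bases upstream of an annotated start of each are shown for that reason. Map1lc3b also rose with both compounds, by less than these 3 genes, and its window is not shown. The sequences are RefSeq windows of the GRCm38.p6 assembly, the build that the submitters' mm10 names, read 5′ to 3′ on the strand of the gene. Those of Gabarapl1 and Ulk1 end before the first annotated exon. That of Tax1bp1 lies inside the gene, upstream of an alternative start, and is the Tax1bp1 window with a match. The window at the gene's first annotated base held no match to a searched motif and is not shown. Bases just after the alternative start were found in no GENCODE transcript of the gene, while those after the other start were found. Capitals mark the 1 match to a searched motif, an antioxidant response element, the site read by Nrf2.
Gabarapl1 (chr6:129532942-129533159, plus strand): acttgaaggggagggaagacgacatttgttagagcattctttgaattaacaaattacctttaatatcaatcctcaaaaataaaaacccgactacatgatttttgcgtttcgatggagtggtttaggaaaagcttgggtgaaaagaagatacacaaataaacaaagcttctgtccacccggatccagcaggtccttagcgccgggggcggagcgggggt
Tax1bp1 (chr6:52713915-52714164, plus strand): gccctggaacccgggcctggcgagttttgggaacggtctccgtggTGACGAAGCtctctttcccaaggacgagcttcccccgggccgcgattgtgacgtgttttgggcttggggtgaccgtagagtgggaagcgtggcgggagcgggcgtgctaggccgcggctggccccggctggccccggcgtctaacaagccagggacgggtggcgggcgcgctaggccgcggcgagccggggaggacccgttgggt
Ulk1 (chr5:110810121-110810331, minus strand): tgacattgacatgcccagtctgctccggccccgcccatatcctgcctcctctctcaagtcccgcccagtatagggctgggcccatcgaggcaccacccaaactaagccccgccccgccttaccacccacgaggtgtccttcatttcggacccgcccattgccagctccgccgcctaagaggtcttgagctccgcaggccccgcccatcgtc

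RefSeq windows were found for 9 of the 10 genes (11 windows, since some genes have more than 1 start), and the 250 bases before each start were searched on both strands. The antioxidant response element, TGACNNNGC, was present in 1 of the 11 windows and in 10.2% of all 32851 RefSeq windows. That match, TGACGAAGC, lies 205 to 197 bases upstream of the alternative start of Tax1bp1, inside the gene. None of the 11 windows held the E-box CACGTG, read by TFEB and related factors (6.02% of all windows), the FOXO site GTAAACA (3.17%), the AP-1 site TGANTCA (6.75%) or the heat shock element GAA, any 2 bases, TTC, any 2 bases, GAA (0.466%). A match describes the letters only, and the absence of one says only that these letters are not in this stretch.

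**Figure D1:**
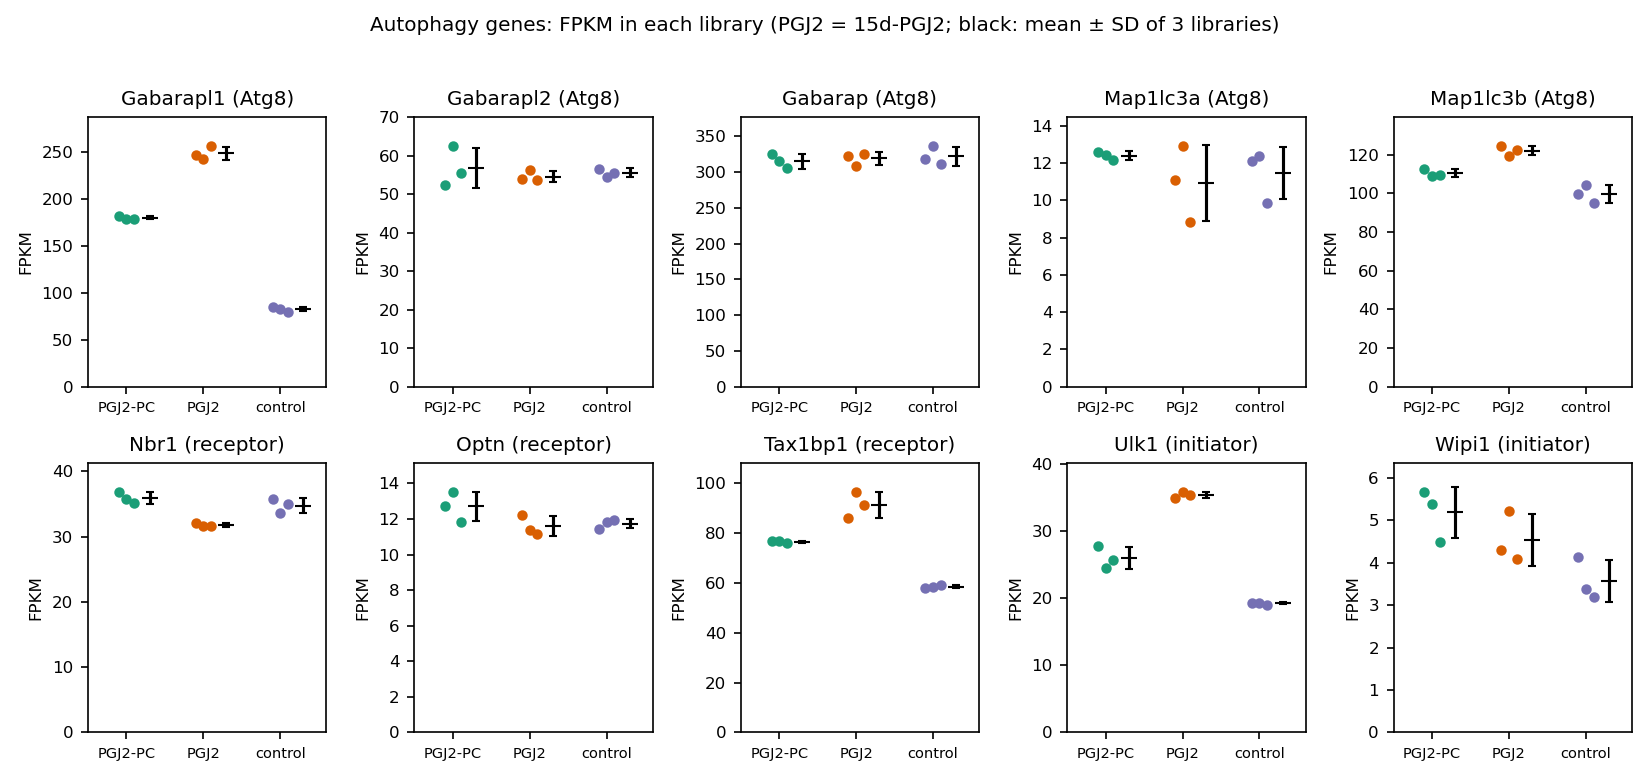
Expression of the 10 autophagy genes in each library, in FPKM on a linear axis from 0 that differs between panels; coloured points are libraries of 15d-PGJ2-PC, 15d-PGJ2 and control cells from left to right, and black marks give the mean ± SD of 3 libraries. Gabarapl1 separates the groups most widely, at 178.73 to 181.72 FPKM with 15d-PGJ2-PC, 242.62 to 256.48 with 15d-PGJ2 and 79.89 to 84.48 in controls, while Gabarap and Gabarapl2 overlap in all 3.

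Expression was given as FPKM, fragments scaled to gene length and sequencing depth, so levels of different genes can be set side by side. In control cells Gabarap was the most abundant of the 10 genes, at a mean of 322.06 FPKM, followed by Map1lc3b (99.56), Gabarapl1 (82.51), Tax1bp1 (58.38), Gabarapl2 (55.61), Nbr1 (34.76), Ulk1 (19.25), Optn (11.74), Map1lc3a (11.46) and Wipi1 (3.57). In that order every pair of neighbours was set apart in all 3 libraries except Optn and Map1lc3a, whose ranges overlapped in each of the 3 groups. With 15d-PGJ2-PC or 15d-PGJ2, Gabarapl1 stood in place 2, above Map1lc3b. Ulk1 stood above Nbr1 with 15d-PGJ2 and below it in the other groups.

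All 10 genes were at 1 FPKM or more in all 9 libraries and so passed the filter for testing (at least 1 FPKM in at least 3 libraries). Changes were tested on log2(FPKM + 1) with limma's moderated test over the 11309 genes that passed, and a gene was called at a Benjamini-Hochberg adjusted p under 0.05. With 15d-PGJ2-PC, 5 of the 10 genes rose against control, none fell and 5 did not pass, where 27.8% of all tested genes were called, 13.8% rose and 14.1% fell. With 15d-PGJ2, 4 rose against control, 1 fell and 5 did not pass, where 47.2% of all tested genes were called, 22.2% rose and 25.0% fell. With 15d-PGJ2-PC against 15d-PGJ2, 1 gene was higher, 4 were lower and 5 did not pass, where 20.6% of all tested genes were called, 12.3% higher and 8.30% lower. The called genes were also the ones whose groups did not overlap in any library, 5 of 10 in each comparison. Among all tested genes 41.8% did not overlap between 15d-PGJ2-PC and control, 55.1% between 15d-PGJ2 and control, and 37.3% between 15d-PGJ2-PC and 15d-PGJ2. The count with 15d-PGJ2 is close to this background.

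The median log2 fold change over the 10 genes was 0.13 with 15d-PGJ2-PC and 0.13 with 15d-PGJ2 against control, beside -0.0038 and -0.02 over all tested genes. Between the compounds it was 0.02, the same as over all tested genes to 2 decimals. The comparisons against control share the 3 control libraries, so they are not independent of each other. In RNA from whole cultures, fewer cells of a type and less RNA per cell cannot be told apart.

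**Figure D2:**
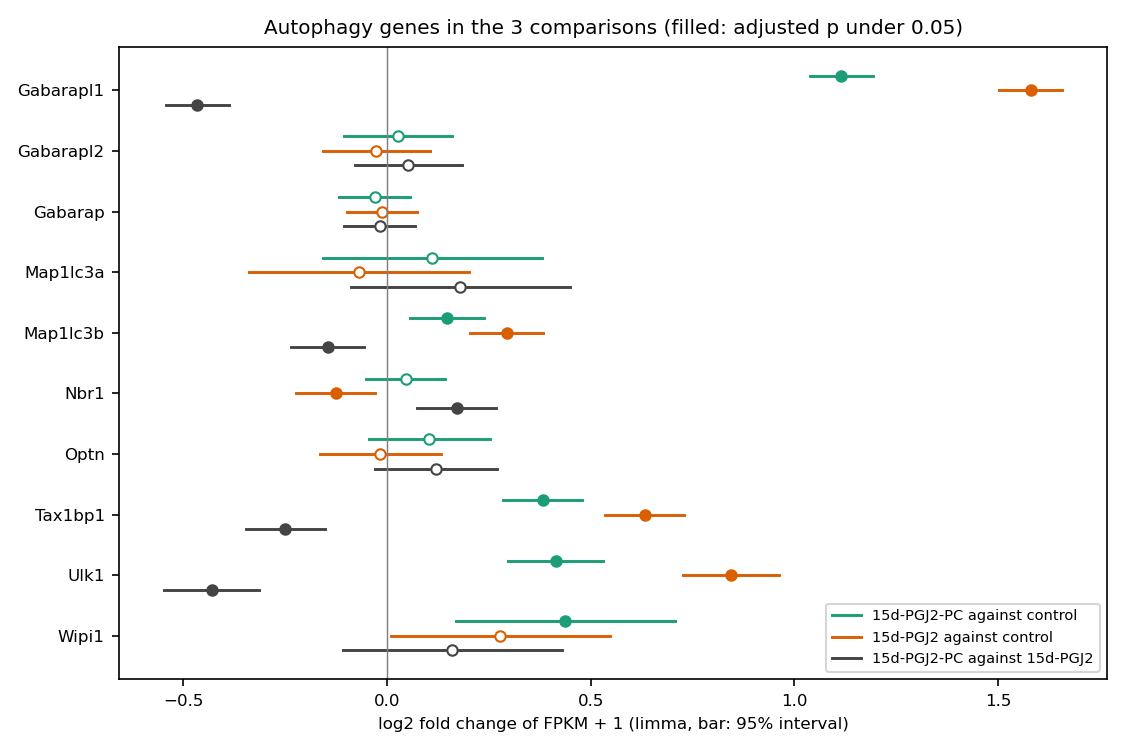
Log2 fold changes of FPKM + 1 for the 10 autophagy genes in the 3 comparisons, with 95% intervals from limma; filled points have an adjusted p under 0.05. Gabarapl1, Tax1bp1, Ulk1 and Map1lc3b lie above 0 for both compounds against control and below 0 for 15d-PGJ2-PC against 15d-PGJ2, and the intervals of Gabarapl2, Gabarap, Map1lc3a and Optn include 0 in every comparison.

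Of the Atg8 genes, Gabarapl1 and Map1lc3b rose with each compound, and Gabarap, Gabarapl2 and Map1lc3a did not pass in any comparison. Gabarapl1 (Entrez 57436, chromosome 6, 129533192 to 129542331 in GRCm38), whose product belongs to the GABARAP subfamily, which acts late in autophagosome formation, was at 181.72, 178.73 and 179.03 FPKM with 15d-PGJ2-PC, at 246.99, 242.62 and 256.48 FPKM with 15d-PGJ2, and at 84.48, 83.15 and 79.89 FPKM in controls. No library of one group came within the range of another, and the 15d-PGJ2-PC libraries lay between the other groups. Means were 2.18-fold the control level with 15d-PGJ2-PC and 3.01-fold with 15d-PGJ2. On the log2 scale the differences were 1.11 (95% interval 1.04 to 1.19, limma adjusted p = 1.25e-08) for 15d-PGJ2-PC against control and 1.58 (1.50 to 1.66, adjusted p = 3.51e-10) for 15d-PGJ2 against control. At the same dose and time, the log2 difference of 15d-PGJ2-PC from 15d-PGJ2 was -0.47 (-0.54 to -0.39, limma adjusted p = 1.09e-05). Among all tested genes, the log2 fold change of Gabarapl1 stood at percentile 99 in both comparisons with control and at 3.7 between the compounds. A noncoding gene annotated on the opposite strand overlaps Gabarapl1 and was listed at 0 to 0.46 FPKM; the labels do not say that counting used strand.

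Map1lc3b (Entrez 67443, chromosome 8, 121590438 to 121598760) encodes LC3B, the Atg8 protein most used to stain autophagosomes. It was at 112.77, 108.94 and 109.31 FPKM with 15d-PGJ2-PC, at 124.49, 119.42 and 122.65 FPKM with 15d-PGJ2, and at 99.81, 104.11 and 94.76 FPKM in controls. The groups stood in the same order as for Gabarapl1 without overlap, over a narrower span. The log2 difference was 0.15 (95% interval 0.06 to 0.24, limma adjusted p = 0.0201) for 15d-PGJ2-PC against control and 0.29 (0.20 to 0.38, adjusted p = 0.000149) for 15d-PGJ2 against control. Between the compounds it was -0.15 (-0.24 to -0.06, limma adjusted p = 0.0282). The 15d-PGJ2-PC call was lost without 15d-PGJ2-PC replicate 1 (0.0722), without control replicate 3 (0.0592), with median-centred values (0.0624) and without the intensity trend (0.0692), within a limma adjusted p range of 0.00441 to 0.0722 over 18 alternatives. The call between the compounds was lost without 15d-PGJ2 replicate 1 (0.0815) or 3 (0.0785), without 15d-PGJ2-PC replicate 2 (0.0889) or 3 (0.078) and without the trend (0.0889; range 0.0136 to 0.0889). Zcchc14, which overlaps Map1lc3b, was at 0.91 to 1.62 FPKM.

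Gabarap (Entrez 56486, chromosome 11, 69991370 to 69994949), which gives its name to the subfamily, averaged 315.25 ± 10.2 FPKM with 15d-PGJ2-PC, 319.24 ± 9.37 with 15d-PGJ2 and 322.06 ± 13.0 in controls (SD, n = 3 each). Its log2 difference was -0.03 (95% interval -0.12 to 0.06) for 15d-PGJ2-PC against control, -0.01 (-0.10 to 0.07) for 15d-PGJ2 against control and -0.02 (-0.11 to 0.07) between the compounds. No bound of these intervals lay farther than 0.12 from 0. Gabarapl2 (Entrez 93739, chromosome 8, 111940703 to 111952915), which encodes the third GABARAP protein, averaged 56.81 ± 5.19 FPKM with 15d-PGJ2-PC, 54.61 ± 1.38 with 15d-PGJ2 and 55.61 ± 1.09 in controls. The 62.53 FPKM of 15d-PGJ2-PC replicate 2 was its highest value, and the other 8 libraries held 52.4 to 56.68 FPKM. Map1lc3a (Entrez 66734, chromosome 2, 155276364 to 155278073), which encodes LC3A, was at 12.15 to 12.59 FPKM with 15d-PGJ2-PC, 8.85 to 12.91 with 15d-PGJ2 and 9.85 to 12.39 in controls. At 46 to 67 reads per library its counting error alone was about 12.9%, and the 95% interval for 15d-PGJ2 against control ran from -0.34 to 0.20 on the log2 scale.

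Because FPKM is scaled to length, the 5 Atg8 genes can be summed in a library and their shares compared. The sum was 674.6 ± 12.2 FPKM with 15d-PGJ2-PC, 755.7 ± 14.4 with 15d-PGJ2 and 571.2 ± 19.7 in controls (SD, n = 3 each). Gabarapl1 made up 26.7 ± 0.369% of the sum with 15d-PGJ2-PC, 32.9 ± 0.464% with 15d-PGJ2 and 14.4 ± 0.352% in controls. The Gabarap share was 46.7 ± 0.713% with 15d-PGJ2-PC, 42.2 ± 0.459% with 15d-PGJ2 and 56.4 ± 0.624% in controls, while its own level hardly differed between groups. The 3 genes of the GABARAP subfamily together held 81.8 ± 0.245% with 15d-PGJ2-PC, 82.4 ± 0.424% with 15d-PGJ2 and 80.6 ± 0.397% in controls. For the shares of Gabarapl1 and Gabarap the groups did not overlap in any comparison, and the exact 2-sided permutation test gave p = 0.1 in each, the smallest that 3 against 3 libraries allow (adjusted p = 0.11 over the 21 comparisons of shares and sums). The difference in the Gabarapl1 share was 12.2 percentage points for 15d-PGJ2-PC against control, 18.5 for 15d-PGJ2 against control and -6.25 for 15d-PGJ2-PC against 15d-PGJ2.

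**Figure D3:**
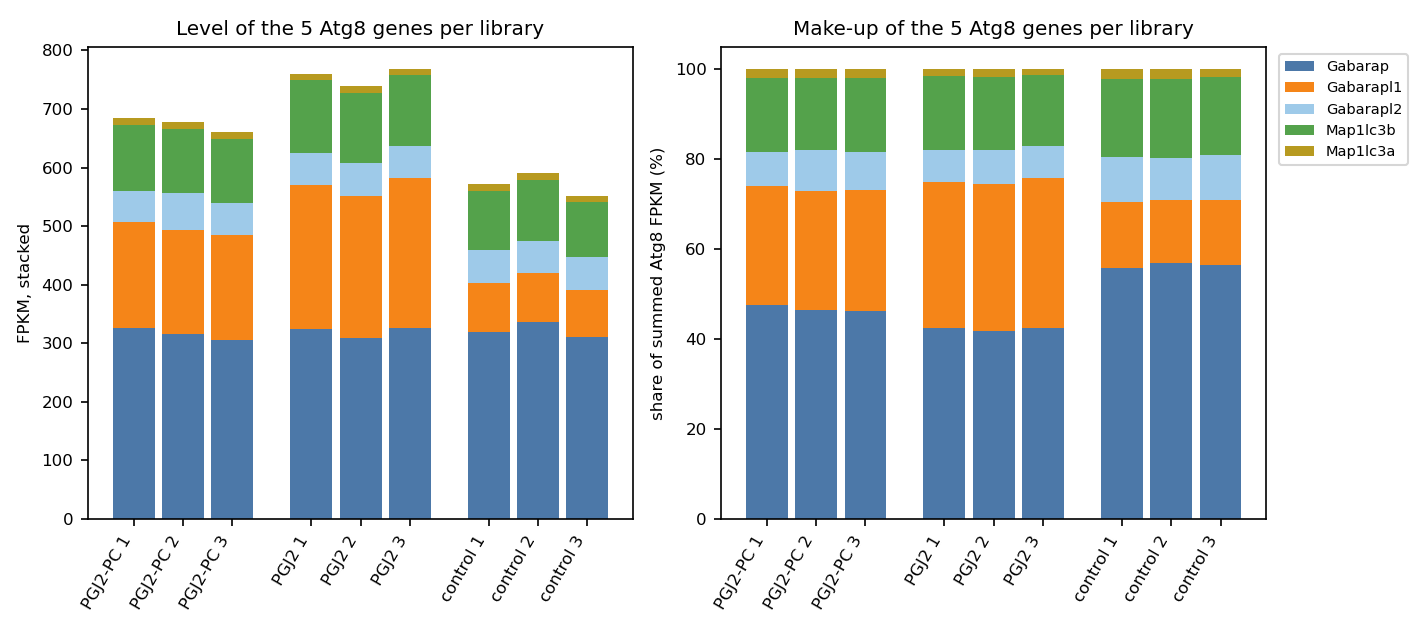
Levels (left, stacked FPKM from 0) and shares (right, percent of the summed FPKM) of the 5 Atg8 genes in each library, grouped as 15d-PGJ2-PC, 15d-PGJ2 and control. The band of Gabarapl1 covers 26.7% of the sum with 15d-PGJ2-PC, 32.9% with 15d-PGJ2 and 14.4% in controls, while the FPKM band of Gabarap keeps nearly the same height in every library.

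Of the 3 receptors, Tax1bp1 rose with both compounds, Nbr1 fell slightly with 15d-PGJ2, and Optn did not pass in any comparison. Tax1bp1 (Entrez 52440, chromosome 6, 52713692 to 52766780), a receptor for ubiquitinated aggregates and bacteria that also dampens inflammatory signalling, was at 76.52, 76.83 and 75.84 FPKM with 15d-PGJ2-PC, at 85.99, 96.36 and 91 FPKM with 15d-PGJ2, and at 58.01, 58.1 and 59.02 FPKM in controls. The groups did not overlap, and the 15d-PGJ2 libraries were the most spread. Means were 1.31-fold the control level with 15d-PGJ2-PC (log2 difference 0.38, 95% interval 0.29 to 0.48, limma adjusted p = 8.34e-05) and 1.56-fold with 15d-PGJ2 (0.63, 0.54 to 0.73, adjusted p = 6.59e-07). Between the compounds the log2 difference was -0.25 (-0.35 to -0.15, limma adjusted p = 0.00228).

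Nbr1 (Entrez 17966, chromosome 11, 101552107 to 101581951), whose product clusters ubiquitinated cargo and takes part in the removal of peroxisomes, was at 36.84, 35.75 and 35.15 FPKM with 15d-PGJ2-PC, at 32.08, 31.6 and 31.62 FPKM with 15d-PGJ2, and at 35.72, 33.56 and 35 FPKM in controls. The 15d-PGJ2 libraries lay below the rest, and those of 15d-PGJ2-PC and control overlapped. The log2 difference was 0.05 (95% interval -0.05 to 0.14, limma adjusted p = 0.484) for 15d-PGJ2-PC against control, -0.13 (-0.22 to -0.03, adjusted p = 0.0358) for 15d-PGJ2 against control and 0.17 (0.07 to 0.27, adjusted p = 0.0181) between the compounds. The fall with 15d-PGJ2 was lost under 8 of 18 alternatives: quantile normalization (0.19), no trend (0.0573), the libraries of the contrast alone (0.0614), and without 15d-PGJ2 replicate 1 (0.0577), 2 (0.0858) or 3 (0.0864) or control replicate 1 (0.114) or 3 (0.08), in a limma adjusted p range of 0.0225 to 0.19. The difference between the compounds was lost with quantile normalization (0.0506) and without 15d-PGJ2 replicate 2 (0.0564) or 3 (0.0569) or 15d-PGJ2-PC replicate 1 (0.0698; range 0.0128 to 0.0698). Optn (Entrez 71648, chromosome 2, 5020521 to 5064399), the gene of optineurin, a receptor for mitochondria and bacteria that the kinase TBK1 activates, was at 11.85 to 13.52 FPKM with 15d-PGJ2-PC, 11.17 to 12.25 with 15d-PGJ2 and 11.45 to 11.94 in controls. Its 95% intervals were -0.05 to 0.25 for 15d-PGJ2-PC against control, -0.17 to 0.13 for 15d-PGJ2 against control and -0.03 to 0.27 between the compounds.

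Among the initiators, Ulk1 rose with each compound and Wipi1 with 15d-PGJ2-PC. Ulk1 (Entrez 22241, chromosome 5, 110784489 to 110810120), the kinase that starts autophagosome formation under the control of mTORC1 and AMPK, was at 27.77, 24.52 and 25.77 FPKM with 15d-PGJ2-PC, at 34.94, 35.84 and 35.32 FPKM with 15d-PGJ2, and at 19.35, 19.36 and 19.05 FPKM in controls. The 3 groups did not overlap, and the 15d-PGJ2-PC libraries again lay between the others. Means were 1.35-fold the control level with 15d-PGJ2-PC (log2 difference 0.41, 95% interval 0.30 to 0.53, limma adjusted p = 0.000177) and 1.84-fold with 15d-PGJ2 (0.84, 0.73 to 0.96, adjusted p = 3.04e-07). Between the compounds the log2 difference was -0.43 (-0.55 to -0.31, limma adjusted p = 0.000224). Gabarapl1, Tax1bp1 and Ulk1 were called in all 3 comparisons under all 18 alternatives run.

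Wipi1 (Entrez 52639, chromosome 11, 109573521 to 109611389), a WD-repeat protein that binds phosphatidylinositol 3-phosphate on the growing membrane, was the lowest of the 10 genes. It was at 5.67, 5.39 and 4.5 FPKM with 15d-PGJ2-PC, at 4.29, 5.23 and 4.1 FPKM with 15d-PGJ2, and at 4.14, 3.38 and 3.19 FPKM in controls. The 15d-PGJ2-PC and control libraries did not overlap, and the 15d-PGJ2 libraries overlapped both. With 35 to 62 reads per library, its counting error was about 14.3%, beside an observed variation within groups of 13.1%. The log2 difference was 0.44 (95% interval 0.17 to 0.71, limma adjusted p = 0.0208) for 15d-PGJ2-PC against control, 0.28 (0.01 to 0.55, adjusted p = 0.084) for 15d-PGJ2 against control and 0.16 (-0.11 to 0.43, adjusted p = 0.401) between the compounds. The rise with 15d-PGJ2-PC was lost without 15d-PGJ2-PC replicate 1 (0.0745) or 2 (0.0648) or control replicate 2 (0.0661) or 3 (0.0714; limma adjusted p range 0.0153 to 0.0745), and 15d-PGJ2 against control passed without control replicate 1 (0.0434; range 0.0434 to 0.268). A call for one compound and not the other is no difference between them, and the interval between the compounds includes 0.

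The compounds formed 1 pair at a matched dose and time. The 4 genes that rose with 15d-PGJ2, Gabarapl1, Map1lc3b, Tax1bp1 and Ulk1, were lower with 15d-PGJ2-PC than with 15d-PGJ2. Those rises and this comparison used the same 15d-PGJ2 libraries, so they are not independent of each other. Mean levels with 15d-PGJ2-PC were 0.723 of those with 15d-PGJ2 for Gabarapl1, 0.736 for Ulk1, 0.838 for Tax1bp1 and 0.903 for Map1lc3b. Nbr1 was higher with 15d-PGJ2-PC, at 1.13 of its 15d-PGJ2 level. The other 5 genes did not pass, and their 95% intervals on the log2 scale reached from -0.11 to 0.07 for Gabarap, -0.08 to 0.18 for Gabarapl2, -0.09 to 0.45 for Map1lc3a, -0.03 to 0.27 for Optn and -0.11 to 0.43 for Wipi1.

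The rest of the pathway was taken from lists of 66 further autophagy genes in 7 roles, all of them tested. With 15d-PGJ2-PC, 19 rose, 5 fell and 42 did not pass against control. With 15d-PGJ2, 23 rose, 10 fell and 33 did not pass against control. Between the compounds, 7 were higher with 15d-PGJ2-PC, 6 were lower and 53 did not pass. The shares of these genes called, 36.4% with 15d-PGJ2-PC, 50% with 15d-PGJ2 and 19.7% between the compounds, stand beside 27.8%, 47.2% and 20.6% of all tested genes, and those with 15d-PGJ2 and between the compounds are near that background. Medians of the log2 fold change over the 66 genes were 0.06 for 15d-PGJ2-PC against control, 0.05 for 15d-PGJ2 against control and -0.0046 between the compounds, beside -0.0038, -0.02 and 0.02 for the same comparisons over all tested genes.

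The counts by role stand beside 13.8% of all tested genes that rose and 14.1% that fell with 15d-PGJ2-PC, and 22.2% that rose and 25.0% that fell with 15d-PGJ2. Genes of lipid transfer and phagophore growth rose in 3 of 7 cases with 15d-PGJ2-PC and in 5 of 7 with 15d-PGJ2, and none fell. Genes of Atg8 conjugation, the enzymes that attach Atg8 proteins to lipid, rose in 2 of 11 cases with 15d-PGJ2-PC and in 1 of 11 with 15d-PGJ2, and none fell. Regulators rose in 6 of 15 cases with 15d-PGJ2-PC, with none falling, and in 8 of 15 with 15d-PGJ2, with 1 falling. In the list of the class III PI3 kinase complex, which makes the phosphoinositide that WIPI proteins bind, 2 of 8 rose and 2 fell with 15d-PGJ2-PC. With 15d-PGJ2, 2 rose and 3 fell. Rubcn, which encodes an inhibitor of the complex, is on this list and fell with both compounds. A list can hold genes of opposite action, so these counts give no direction of the pathway. Other receptors also went both ways, with 4 of 14 rising and 2 falling with 15d-PGJ2-PC, and 4 rising and 4 falling with 15d-PGJ2. Of the 4 other genes of the initiation complex, 1 rose and 1 fell with 15d-PGJ2-PC, and 2 rose and 1 fell with 15d-PGJ2. Of 7 genes of fusion with lysosomes, 1 rose with 15d-PGJ2-PC, and 1 rose and 1 fell with 15d-PGJ2.

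**Figure D4:**
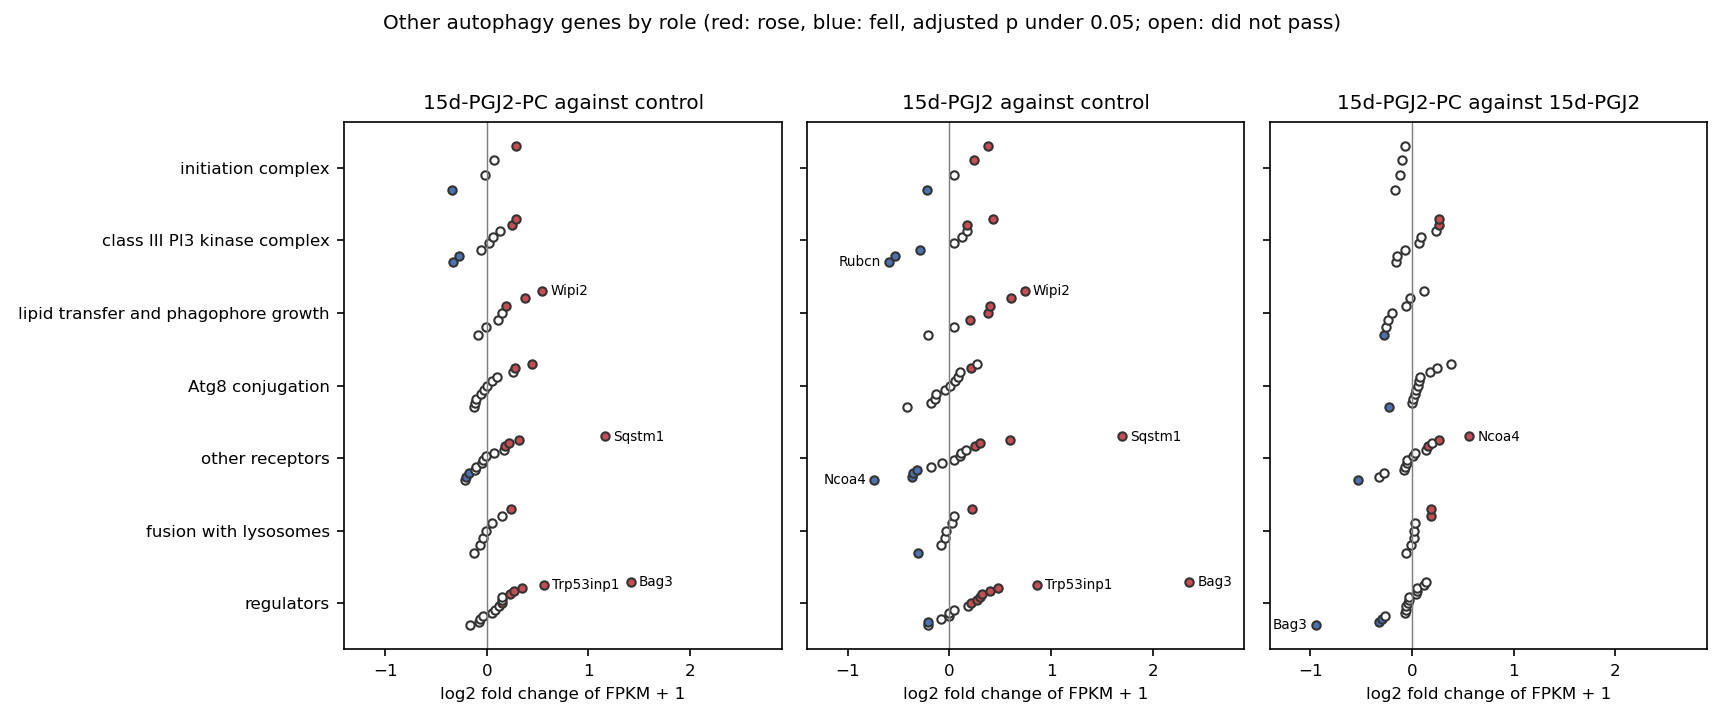
Log2 fold changes of FPKM + 1 for 66 further autophagy genes in 7 roles, 1 panel per comparison; red points rose (in the third panel, were higher with 15d-PGJ2-PC), blue points fell (were lower), open points did not pass, and points are spread vertically within a role by rank. Sqstm1 and Bag3 lie farthest to the right in both comparisons with control, at 1.16 and 1.42 with 15d-PGJ2-PC and 1.69 and 2.36 with 15d-PGJ2, and most genes of Atg8 conjugation lie near 0.

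The 4 largest rises among the called genes of these lists were of the same genes with both compounds. Bag3, a co-chaperone of chaperone-assisted autophagy, was at 42.44, 36.96 and 40.76 FPKM with 15d-PGJ2-PC, at 68.52, 78.47 and 87.23 FPKM with 15d-PGJ2, and at 11.4, 16.78 and 15.46 FPKM in controls (against control, limma adjusted p = 1.63e-05 with 15d-PGJ2-PC and 1.02e-07 with 15d-PGJ2). Sqstm1, which encodes the ubiquitin receptor p62, averaged 2266 ± 44.8 FPKM with 15d-PGJ2-PC, 3273 ± 122 with 15d-PGJ2 and 1011 ± 33.7 in controls, above every one of the 10 genes in each group. Its log2 difference was 1.16 (SE 0.03, limma adjusted p = 9.39e-09) for 15d-PGJ2-PC against control, 1.69 (adjusted p = 2.01e-10) for 15d-PGJ2 against control and -0.53 (adjusted p = 5.19e-06) between the compounds, against 1.11, 1.58 and -0.47 for Gabarapl1. Over the 18 alternatives Sqstm1 ranged from 1.396 to 1.725 for 15d-PGJ2 against control and from -0.561 to -0.307 between the compounds. Gabarapl1 ranged from 1.557 to 1.622 and from -0.487 to -0.443. With quantile normalization, 15d-PGJ2 against control was 1.396 for Sqstm1 and 1.622 for Gabarapl1. Trp53inp1, whose product binds Atg8 proteins, rose by 0.56 with 15d-PGJ2-PC and 0.86 with 15d-PGJ2 on the log2 scale (limma adjusted p = 4.64e-05 and 5.93e-07). Wipi2, a relative of Wipi1 that brings the conjugation machinery to the membrane, rose by 0.54 with 15d-PGJ2-PC and 0.74 with 15d-PGJ2 (limma adjusted p = 0.000205 and 8.27e-06). Its mean was 20.5 ± 1.00 FPKM with 15d-PGJ2-PC, 23.67 ± 1.27 with 15d-PGJ2 and 13.79 ± 1.10 in controls, several times the level of Wipi1.

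The largest falls were smaller than these rises of Bag3 and Sqstm1. Rubcn, which encodes Rubicon, an inhibitor of the class III PI3 kinase complex, averaged 12.84 ± 0.301 FPKM with 15d-PGJ2-PC, 10.56 ± 0.538 with 15d-PGJ2 and 16.4 ± 1.23 in controls, log2 differences from control of -0.33 (limma adjusted p = 0.00478) and -0.59 (adjusted p = 4.14e-05). Uvrag, a subunit of one form of that complex, averaged 20.69 ± 1.98 FPKM with 15d-PGJ2-PC, 17.11 ± 1.56 with 15d-PGJ2 and 25.12 ± 0.331 in controls, with log2 differences from control of -0.27 (limma adjusted p = 0.0279) and -0.53 (adjusted p = 0.000279). The Uvrag call with 15d-PGJ2-PC was lost without 15d-PGJ2-PC replicate 2 (0.0979), without control replicate 1 (0.076), 2 (0.0702) or 3 (0.0565) and with no filter (0.0505; limma adjusted p range 0.0163 to 0.0979). Ulk2, the relative of Ulk1, averaged 12.95 ± 0.396 FPKM with 15d-PGJ2-PC, 14.18 ± 0.557 with 15d-PGJ2 and 16.71 ± 0.762 in controls, so it was lower in treated libraries where Ulk1 was higher (log2 differences -0.34, limma adjusted p = 0.0015, and -0.22, adjusted p = 0.0109). Wdfy3, which encodes the aggregate adaptor ALFY, had log2 differences of -0.20 (limma adjusted p = 0.0071) with 15d-PGJ2-PC and -0.36 (adjusted p = 7.58e-05) with 15d-PGJ2. Ncoa4, the receptor for ferritin, averaged 48.24 ± 1.23 FPKM with 15d-PGJ2-PC, 32.46 ± 1.32 with 15d-PGJ2 and 54.79 ± 2.50 in controls (log2 differences -0.18, limma adjusted p = 0.0198, and -0.74, adjusted p = 5.14e-07). Sec62, a receptor for endoplasmic reticulum, averaged 21.92 ± 0.489 FPKM with 15d-PGJ2-PC, 18.15 ± 0.811 with 15d-PGJ2 and 23.71 ± 1.14 in controls (-0.11, limma adjusted p = 0.191, and -0.37, adjusted p = 3e-04).

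Between the compounds, Bag3 (-0.94 on the log2 scale), Sqstm1 (-0.53), Rptor (-0.32), which encodes a subunit of mTORC1, and Trp53inp1 (-0.30) were lower with 15d-PGJ2-PC, and Ncoa4 (0.56), Rubcn (0.26), Sec62 (0.26) and Uvrag (0.26) were higher. Limma adjusted p-values ran from 5.19e-06 for Sqstm1 to 0.0435 for Uvrag. The Uvrag call was lost under 13 of 18 alternatives, among them without 15d-PGJ2-PC replicate 1 (0.145) or 3 (0.118), 15d-PGJ2 replicate 1 (0.133) or 2 (0.0711) and control replicate 1 (0.0589), 2 (0.0599) or 3 (0.055), in a range of 0.0163 to 0.145. The Rubcn call was lost without 15d-PGJ2 replicate 2 (0.0808) or 15d-PGJ2-PC replicate 2 (0.0729; range 0.0154 to 0.0808).

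For each of the 10 genes, the tested genes with the nearest profile were found by the root mean square difference between log2(FPKM + 1) values over the 9 libraries, each taken relative to its control mean. Nearest to Gabarapl1 were Psmd5 (root mean square difference 0.0714), which encodes an assembly chaperone of the proteasome, Htatip2 (0.0785) and Sqstm1 (0.0821). Psmd5 averaged 43.72 FPKM with 15d-PGJ2-PC, 57.73 with 15d-PGJ2 and 18.91 in controls, and Htatip2 averaged 111.7 FPKM with 15d-PGJ2-PC, 166.2 with 15d-PGJ2 and 51.8 in controls. Nearest to Tax1bp1 were Rab18, Ubxn7 and Tpp2, and nearest to Ulk1 were Man1a2, Tuba1c and Prr13. For Map1lc3b they were Mesdc1, Gapdh and Pam16, for Nbr1 Psap, Capn1 and Hadha, and for Wipi1 Zfp251, Tmem71 and Adck5. For Gabarap they were Ppia, Ccni and Dnm2, for Gabarapl2 Slc39a9, Trap1 and Septin7, for Map1lc3a Get4, Rbm7 and Zfp212, and for Optn Arhgap10, Slc25a45 and Derl1. The measure is a description over 9 libraries of 3 groups, and for genes whose groups overlap it finds other genes with little difference between groups.

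**Figure D5:**
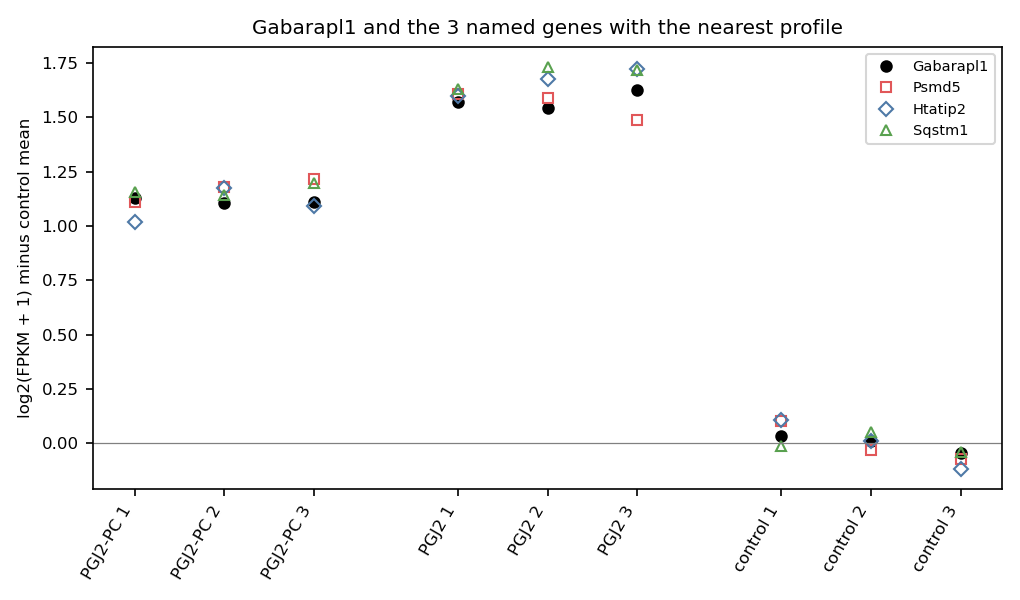
Log2(FPKM + 1) minus the control mean in each of the 9 libraries for Gabarapl1 (filled) and the 3 genes with the nearest profile, Psmd5, Htatip2 and Sqstm1 (open). In all 4 genes the 15d-PGJ2-PC libraries lie between those of 15d-PGJ2 and control. The 3 genes were picked for closeness to Gabarapl1 in these 9 libraries, so the shared order follows from the choice. Gabarapl1 ranges from 1.11 to 1.13 with 15d-PGJ2-PC, from 1.55 to 1.62 with 15d-PGJ2 and from -0.05 to 0.03 in controls.

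Depth was about 5.37 M reads per library, 1 estimate for all libraries from the steps between low FPKM values. Genes above 0 numbered 14459 to 14523 with 15d-PGJ2-PC, 14690 to 14738 with 15d-PGJ2 and 15165 to 15277 in controls, and genes at 1 FPKM or more 10876 to 11026 over the 9 libraries. Of 10 macrophage markers, all listed, 7 fell with 15d-PGJ2-PC and 9 with 15d-PGJ2, where 14.1% and 25.0% of all tested genes fell. Between the compounds 9 were higher with 15d-PGJ2-PC, where 12.3% of all tested genes were higher. The summed level of the 10 markers was 6143 to 6319 FPKM with 15d-PGJ2-PC, 5243 to 5638 with 15d-PGJ2 and 6807 to 7048 in controls. The 9 stromal markers summed to 8.34 to 8.86 FPKM with 15d-PGJ2-PC, 8.88 to 11.36 with 15d-PGJ2 and 37.93 to 44.69 in controls. The 5 of 6 erythroid markers listed summed to 0.12 to 0.91 FPKM with 15d-PGJ2-PC, 0.45 to 0.88 with 15d-PGJ2 and 19.88 to 31.9 in controls. The 5 keratinocyte markers summed to 0.51 to 1.37 FPKM with 15d-PGJ2-PC, 0.68 to 1.03 with 15d-PGJ2 and 20.14 to 24.58 in controls. The keratinocyte genes Krt1, Krt5, Krt14 and Lor were listed at 0 in all treated libraries. Neutrophil markers (9 of 9 listed) summed to 27.1 to 31.6 FPKM with 15d-PGJ2-PC, 17.12 to 21 with 15d-PGJ2 and 35.19 to 37.79 in controls. Of the 5 neutrophil markers tested, 1 rose, 1 fell and 3 did not pass with 15d-PGJ2-PC, and 1 rose and 4 fell with 15d-PGJ2. Over all tested genes 13.8% rose and 14.1% fell with 15d-PGJ2-PC, and 22.2% rose and 25.0% fell with 15d-PGJ2. Mpo went against the sum, with means of 1.987 FPKM with 15d-PGJ2-PC, 1.69 with 15d-PGJ2 and 0.0933 in controls. Dendritic markers (4 of 4) summed to 24.05 to 27.07 FPKM with 15d-PGJ2-PC, 19.96 to 23.41 with 15d-PGJ2 and 31.35 to 32.68 in controls. Most of that sum was Batf3 (means 24.62, 20.49 and 31), while Flt3, Zbtb46 and Xcr1 averaged at most 1.063 FPKM in any group. Lists of T cells (2 of 4 listed), neurons (3 of 5) and skeletal muscle (4 of 5) summed to at most 1.74 FPKM in any library. Skeletal muscle was at 0 FPKM with 15d-PGJ2-PC, 0.18 to 0.57 with 15d-PGJ2 and 1.67 to 1.74 in controls. The part of these markers in the differences of the 10 autophagy genes was not tested.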

How the data were processed

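RNA of cultured bone marrow-derived macrophages was extracted with Trizol and made into libraries with Illumina's TruSeq RNA kit, per the labels' protocols. The authors deposited 1 table of FPKM values per gene, per the file headers; the submitters' processing notes name mm10 and BWA, with no version of BWA and no counting tool given in the sources used here. All sample columns were used, and 23 gene symbols that a spreadsheet had turned into dates were restored from the Entrez number.

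FPKM values are not counts and no count model was fitted. The 11309 genes that reached 1 FPKM in 3 or more of the 9 libraries were tested on log2(FPKM + 1), which understates fold changes of genes near 1 FPKM, with limma 3.58.1 in R 4.3.3: a moderated 2-sided test with an intensity trend, 1 variance per gene over all 9 libraries, no covariate, and Benjamini-Hochberg adjustment within each contrast (threshold 0.05). The fit was tested on simulated data. Shares were compared by exact 2-sided permutation tests. Depth was estimated from the value of 1 read in 76 genes (quartiles 5.0 to 5.44 M reads, tolerance 0.06 of a step); the estimate is 1 for all libraries, and the reads and counting errors given per gene are approximations from it, and cover counting error only.

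The 10 genes and all lists were chosen with earlier results of these data known. The B cell marker list is not reported here. The rule for naming took all 10 genes; of the other autophagy genes, up to 4 per contrast and direction that passed with the largest log2 fold change; and, for each of the 10, the 3 tested genes with the nearest profile, skipping Rik names and gene models. The alternatives, 18 for each gene, were pseudocounts of 0.1 and 0.5, no filter, a filter of 5 FPKM, quantile normalization, median-centring, no trend, the libraries of a contrast alone, a replicate block, and leaving out each library. Gene coordinates are 1-based, from the RefSeq annotation of GRCm38.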

Additional observations from a re-analysis of the deposited data

How the results depend on the processing

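Gabarapl1, Tax1bp1 and Ulk1 in all 3 comparisons, and Map1lc3b with 15d-PGJ2 against control, kept direction and call under all 18 alternatives. Leaving out 1 library at a time, the called genes among the 10 numbered 3 to 5 for 15d-PGJ2-PC against control (3 without 15d-PGJ2-PC replicate 1 or control replicate 3) and 3 to 5 for 15d-PGJ2-PC against 15d-PGJ2 (3 without 15d-PGJ2 replicate 3), against 5 in each with all libraries. The other autophagy genes called between the compounds numbered 8 to 13 in the same way, against 13. Over all tested genes, leaving out 1 library gave 2530 to 3152 called for 15d-PGJ2-PC against control, against 3147 with all libraries. Between the compounds it gave 1787 to 2375 called, against 2335. Changes of sign touched only differences that were not called: with quantile normalization Gabarapl2 for 15d-PGJ2 against control (0.0505), Gabarap for 15d-PGJ2-PC against control (0.0099) and Gabarap between the compounds (0.0232). When a library was left out, Gabarap ranged from -0.0549 to 0.0015 for 15d-PGJ2-PC against control, from -0.0367 to 0.0196 for 15d-PGJ2 against control and from -0.0425 to 0.0049 between the compounds. Likewise Gabarapl2 ranged from -0.0433 to 0.082 for 15d-PGJ2-PC against control and from -0.0174 to 0.108 between the compounds, and for 15d-PGJ2 against control Map1lc3a ranged from -0.186 to 0.0632 and Optn from -0.0535 to 0.0078. The difference in the Gabarapl1 share stayed at 12.0 to 12.4 percentage points for 15d-PGJ2-PC against control, 18.2 to 18.7 for 15d-PGJ2 against control and -6.46 to -5.99 between the compounds. The cause of these shifts was not tested. Depth limits Map1lc3a and Wipi1 most, whose counting errors were 12.9% and 14.3%.

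Deviations from the group means correlated at -0.0434 to 0.0523 over 9 pairs of libraries with the same replicate number, under a limit of 0.1. The same number correlated best in 10 of 18 checks. With 3 libraries a group this check cannot decide whether the numbers pair the samples, and the labels do not say. With the replicate block, 5 of the 10 genes were called in each comparison, and no call among them changed. The block left 3041 of all tested genes called with 15d-PGJ2-PC against control, 5272 with 15d-PGJ2 against control and 2215 between the compounds. Of the other autophagy genes it called 23 with 15d-PGJ2-PC against control, 32 with 15d-PGJ2 against control and 14 between the compounds.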
